A study of Mus musculus domesticus with 12 samples.

Results

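The comparison described here set erythroid precursors that carried a short hairpin RNA against Exosc10 beside precursors that carried a control hairpin. Its members are the 4 libraries whose sample titles name the Exosc10 hairpin (shExosc10) and the 4 whose titles name the firefly luciferase hairpin (shLuc), 8 of the 12 libraries in the series, and the expected count of every gene in them was compared. The other 4 libraries carried a hairpin against Dis3 (shDis3). Cells of both groups came from livers of C57BL/6J embryos at stage E14.5. They were depleted of lineage-positive cells, transduced with a retroviral hairpin vector, grown in erythroid expansion medium for 2 days and sorted as GFP-positive, Ter119-negative cells with CD71 at an intermediate or positive level (CD71 is the receptor for transferrin, abundant on erythroid precursors). Ter119 marks later erythroblasts, so the sort kept erythroid progenitors and proerythroblasts together. Hairpins were introduced into primary cells, and both groups carry the vector and GFP. Each target is given by 1 hairpin label, so an effect of Exosc10 loss and an off-target effect of the hairpin cannot be told apart. Total RNA was sequenced with a kit for very small inputs, in quadruplicate. Nothing in the labels ties the replicates to separate litters or cultures, so p-values measure the spread between these libraries only, which may be technical.

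The RNA exosome is a ring of non-catalytic subunits that threads RNA to attached nucleases, which degrade or trim it from its 3′ end. EXOSC10 (Rrp6 in yeast) is the nuclear exoribonuclease on top of the ring, and DIS3 is the nuclease below it. In the nucleus, EXOSC10 is known for the 3′ trimming of ribosomal, small nucleolar and small nuclear RNA and for the decay of unstable nuclear transcripts. In red cell precursors the exosome is known to restrain maturation while cells still divide.

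The sorted identity was checked on erythroid markers, given in TPM, a share of transcripts that corrects for their length. Gata1, the master erythroid transcription factor, lay between 30.8 and 70.1 TPM in the 8 libraries, and Klf1, the activator of adult globin, between 52.5 and 114 TPM. Tfrc, which encodes CD71, lay between 104 and 270 TPM, and Kit, the stem cell factor receptor, between 54.3 and 102 TPM. Markers of other cell types ranged from absent to clearly present. Fcer1a of mast cells and Stab2 of liver endothelium were at 0 TPM in all 8 libraries, C1qa reached 0.05 TPM, Cdh5 0.10, Ttr 0.29, Cd3e 1.35 and Alb 1.81. Apoa1, an apolipoprotein of hepatocytes, lay between 5.0 and 21.4 TPM, and Lyz2, a lysozyme of myeloid cells, between 32.8 and 83.6 TPM. Hdc, which makes histamine in mast cells and basophils, lay between 22.1 and 122 TPM, Ms4a2, of their IgE receptor, between 0.88 and 18.5, and Pecam1, of endothelium and platelets, between 0.50 and 13.5.

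A library in each group stood apart. Across genes, the log2 CPM of shLuc replicate 4 correlated at 0.986 with shDis3 replicate 3 and at most at 0.946 with other shLuc libraries, and shExosc10 replicate 1 correlated at 0.981 with shDis3 replicate 4 and at most at 0.942 with its own group. These 2 libraries also held the highest summed levels of megakaryocyte, granulocyte precursor, stem and early progenitor, macrophage, and endothelial and stromal genes, though not of mast cell, lymphoid or hepatocyte genes taken as lists. Mpo, the myeloperoxidase of granulocyte precursors, was at 1855 TPM in shLuc replicate 4, at 490 in shExosc10 replicate 1 and at 125 to 354 in the other 6. Pf4 (platelet factor 4) was at 175 and 166 TPM in those libraries and at 15.5 to 82.2 in the others, and Cpa3, a mast cell protease, at 70.2 and 47.9 against 2.22 to 3.83. The 17 mast cell and basophil genes as a list summed to 1032 and 736.6 CPM there and to 665 to 920.6 CPM in the others. Elane, another protease of granulocyte precursors, was at 313 and 115 TPM against 56.1 to 158. The 27 megakaryocyte genes summed to 1106 and 1067 CPM (counts scaled to the size of the library) in those libraries and to 426.6 to 572.5 CPM in the other 6, and the 23 granulocyte precursor genes to 6307 and 3679 against 1794 to 2543 CPM. Olfactory receptor genes, which these cells are not known to transcribe, summed to 8.25 and 11.8 CPM in them and to 40.2 to 312 CPM in the others. Library totals ran from 22149749 to 28177484 counts in shLuc and from 19337755 to 29958448 in shExosc10. Mitochondrial genes took 9.79% to 20.9% of them. Results below are therefore also given without shLuc replicate 4, shExosc10 replicate 1 and the pair of shDis3 libraries they resemble, a fit that keeps 3 libraries in each of the groups compared.

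The Exosc10 transcript was lower in every library that carried its hairpin. Exosc10 (ENSMUSG00000017264.16, GRCm38 chromosome 4, 148558429 to 148582401, on the plus strand) stood at 85.4, 92.4, 101.9 and 113.1 normalised CPM in shLuc replicates 1 to 4, and 30.8, 25.8, 18.9 and 30.2 CPM in shExosc10. The groups did not overlap, and the lowest shLuc library held 2.78 times the level of the highest shExosc10 library. The mean fell from 98.2 ± 12.01 to 26.4 ± 5.50 CPM (SD, n = 4), leaving 26.9% of the control level. Exosc10 fell by 1.89 on the log2 scale (SE 0.21), with an adjusted p of 0.00502 by edgeR's quasi-likelihood test. An exact two-sided permutation test of its log2 CPM gave p = 0.0286, the smallest value that 4 against 4 libraries allow. The edgeR call was lost without shExosc10 replicate 2 (adjusted p = 0.0631) or replicate 3 (adjusted p = 0.054), with a replicate block on the 8 libraries alone (-1.91, adjusted p = 0.178) and by limma on log2(TPM + 1) (-1.69). In shDis3 the same gene measured 117.3, 80.1, 116.3 and 141.1 CPM. Counts of a gene measure its transcript, and the protein was not measured.

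Of 17650 genes tested, Exosc10 was the only one that passed the adjusted threshold of 0.05 (0.00567% called lower). No gene was called higher (0%). Every other adjusted p rounded to 1. With an unadjusted p under 0.05, 161 genes lay higher (0.912%) and 210 lower (1.19%), 371 in all, where 882 would be reached if no gene differed. In 180 genes all 4 shExosc10 libraries lay above all 4 shLuc libraries (1.02% of those tested), and in 257 all lay below (1.46%). If the labels of the 8 libraries were random, a gene without ties would separate in either direction with a probability of 0.0286. The median absolute log2 fold change was 0.23 over all genes and 0.50 over these 437. They were picked for their separation, which favours a larger fold change. DESeq2 on the same counts called 3 genes higher (0.00727%) and 3 lower (0.00727%) of 41267. They were Rab1a, Serinc3 and Sfrp4 on the higher side and Exosc10, Chp1 and Mid1ip1 on the lower side. limma on log2(TPM + 1) called 0 of 11278, with 141 genes at an unadjusted p under 0.05. Without the 4 libraries named above, edgeR called 5 genes higher (0.023%) and 2 lower (0.00922%) of 21703: Rab1a, Tmcc2, Serinc3, Cpeb4 and Aqp1 rose, and Exosc10 and Hist2h2aa2 fell. With the shDis3 libraries kept and only shLuc replicate 4 and shExosc10 replicate 1 left out, it called 2 genes, Exosc10 and Rab1a.

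**Figure D1:**
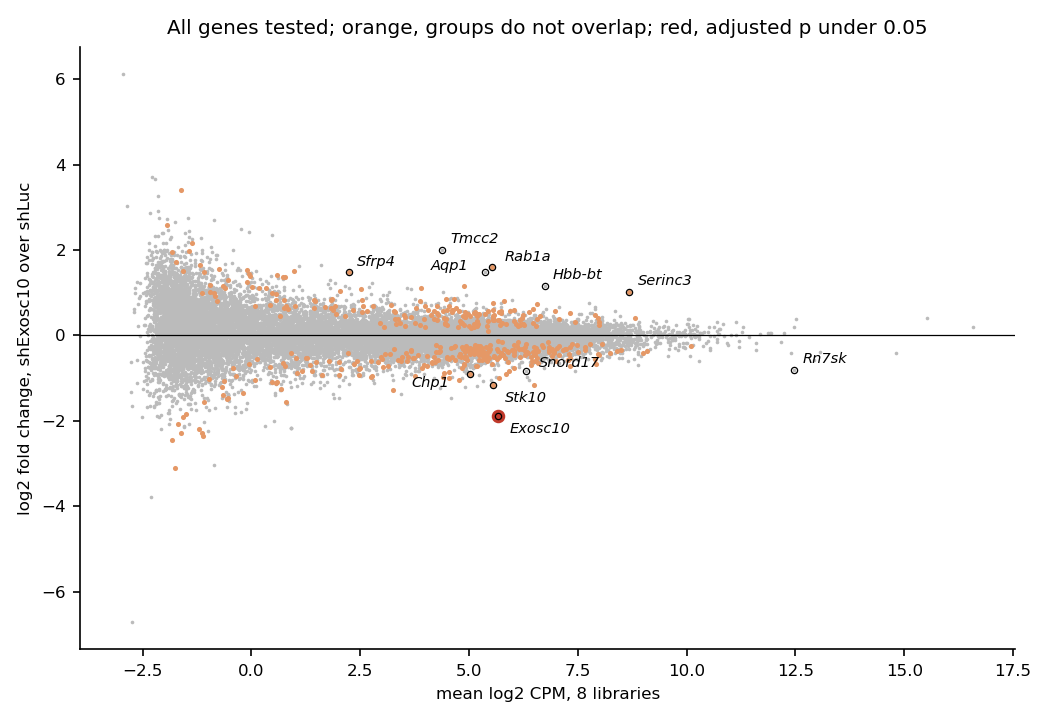
Each point is 1 of 17650 genes, with its mean log2 CPM over the 8 libraries on the x axis and its log2 fold change in shExosc10 over shLuc on the y axis; orange points are the 437 genes whose groups do not overlap and the red point is the gene with an adjusted p under 0.05. Exosc10 at -1.89 is the only red point, and Rab1a, Sfrp4 and Serinc3 lie at 1.60, 1.49 and 1.02 among the orange ones.

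Other exosome components were not called. Dis3, the other main nuclease, measured 125.5, 125.7, 113.4 and 160.5 CPM in shLuc and 196.2, 130.0, 129.7 and 116.6 CPM in shExosc10. The groups overlapped, with shExosc10 replicate 1 the highest of the 8, and the log2 fold change was 0.12 (SE 0.24). Dis3l, its cytoplasmic paralog, stood at -0.09 (SE 0.23), and Dis3l2, a nuclease that works without the ring, of 0.13 (SE 0.16). Dis3 changed sign without shExosc10 replicate 1 (-0.05), and Dis3l without shLuc replicate 4 (0.05).

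The ring and cap genes lay slightly higher, and this rested on shExosc10 replicate 1. Of 9 such genes 8 were tested, 6 with a positive log2 fold change and a median of 0.18, against 0.02 over all genes. Exosc6 was listed at 0 in all 8 libraries. Exosc9, a ring subunit, measured 111.1, 89.6, 89.7 and 87.9 CPM in shLuc and 166.2, 101.3, 112.8 and 100.4 in shExosc10 (log2 fold change 0.35, SE 0.22). Exosc4, another ring subunit, measured 18.9, 16.7, 20.2 and 21.8 against 35.3, 16.02, 17.7 and 17.9 CPM, so that only shExosc10 replicate 1 lay above the controls. Summed over the list, that library held 649.5 CPM, and the other 7 held 408.3 to 468.9. Without the 4 libraries 2 of the 8 were positive, with a median of -0.08.

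Cofactors that bring RNA to the exosome showed no call either. Among 17 nuclear cofactors and adaptors, 9 were positive, the median was 0.02 and none had an unadjusted p under 0.05. Mphosph6, which binds the exosome beside EXOSC10, measured 45.1, 38.9, 34.8 and 31.1 CPM in shLuc and 67.7, 48.2, 53.7 and 36.3 in shExosc10. Its groups overlapped through shExosc10 replicate 4 (log2 fold change 0.46, SE 0.26). Mtrex, the helicase of the nuclear exosome, had a log2 fold change of 0.19 (SE 0.20), Zc3h3 of -0.42 (SE 0.27) and Srrt, which links capped RNA to the exosome, of -0.28 (SE 0.26). Of the 4 cytoplasmic cofactors, the Ski complex helicase Skiv2l stood at -0.42 on the log2 scale (SE 0.29) and Wdr61, its partner, at 0.27 (SE 0.20).

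**Figure D2:**
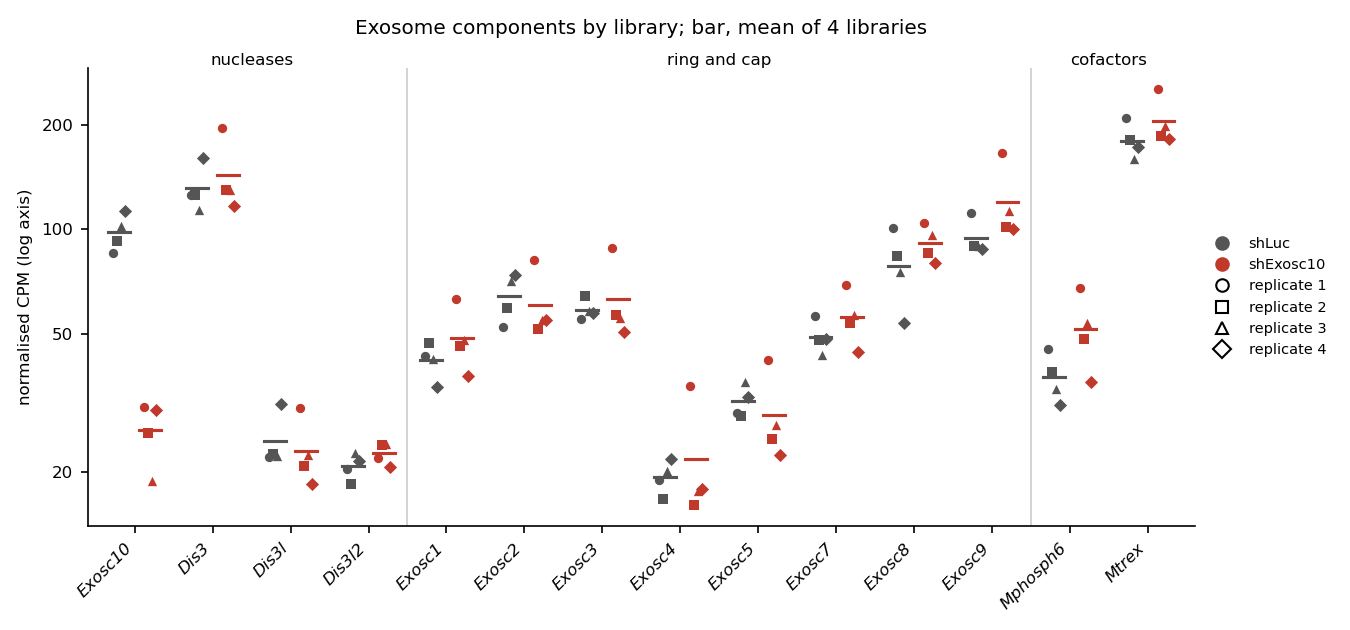
Normalised CPM on a log axis for 14 exosome genes in each shLuc (grey) and shExosc10 (red) library, with the marker shape for the replicate and a bar for the mean of 4 libraries. Exosc10 alone separates the groups, and shExosc10 replicate 1 is the highest red point for each ring and cap gene.

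Among 31 other RNA decay enzymes, the cytoplasmic exonuclease Xrn1 had the lowest p. Xrn1, which degrades decapped mRNA from its 5′ end, measured 42.2, 50.2, 37.04 and 49.98 CPM in shLuc and 61.2, 65.2, 65.1 and 66.2 in shExosc10. All 4 shExosc10 libraries lay above the controls, and the log2 fold change of 0.52 (SE 0.15, unadjusted p = 0.00374) was not called. Xrn2, its nuclear counterpart, had a log2 fold change of 0.21 (SE 0.19). Dcp2, the decapping enzyme, was at -0.50 (SE 0.23, unadjusted p = 0.0448) with overlapping groups. In the list 12 were positive and 19 negative, with a median of -0.13 (-0.19 and 5 of 31 positive without the 4 libraries). The 15 nonsense-mediated decay factors had a median of -0.06, with Smg5 at -0.40 (SE 0.22).

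Among genes that were higher in shExosc10, the lowest p without the 4 libraries was that of Rab1a, a small GTPase of transport from the endoplasmic reticulum to the Golgi. Rab1a (ENSMUSG00000020149.17, chromosome 11, 20201432 to 20226856, plus strand) stood at 18.6, 18.2, 17.8 and 59.8 CPM in shLuc and 103.6, 83.4, 85.0 and 75.8 in shExosc10. The groups did not overlap, and shLuc replicate 4 lay well above the other controls. The mean rose from 28.6 ± 20.8 to 87.0 ± 11.8 CPM (SD, n = 4). Its log2 fold change was 1.60 (SE 0.35), not called by edgeR in the 12 libraries and called by DESeq2 (adjusted p = 0.0259). With 12 libraries its unadjusted p by edgeR was 0.000406, above that of Sfrp4 (0.000192). Without the 4 libraries the log2 fold change was 2.14 (SE 0.19, adjusted p = 1.83e-06 by edgeR). Without shLuc replicate 4 alone it was 2.26 (adjusted p = 0.000707 by edgeR). Both fits leave out the high control, shLuc replicate 4, so these p-values describe the libraries kept. With 12 libraries and no filter on low counts edgeR also called Rab1a (adjusted p = 1.6e-05). The shDis3 libraries measured 69.7, 66.2, 65.4 and 97.8 CPM, all above shLuc. The comparison of shDis3 with shLuc shares these controls, so the 3 low shLuc libraries enter both.

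Serinc3, a multi-pass membrane protein of the serine incorporator family, had the same layout. Serinc3 (ENSMUSG00000017707.9, chromosome 2, 163623272 to 163645131, minus strand) measured 234.1, 250.3, 241.1 and 449.6 CPM in shLuc and 685.3, 544.0, 635.3 and 524.6 in shExosc10. The groups did not overlap, with shLuc replicate 4 the highest control. The log2 fold change was 1.02 (SE 0.23), called by DESeq2 (adjusted p = 0.0259) and, without the 4 libraries, by edgeR (1.22, adjusted p = 0.00675). The fit without the 4 leaves out that highest control, so its p-value describes the libraries kept. In shDis3 Serinc3 measured 568.4, 499.3, 448.5 and 663.6 CPM.

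Sfrp4, a secreted antagonist of Wnt ligands, was low in all libraries and higher in shExosc10. Sfrp4 (ENSMUSG00000021319.7, chromosome 13, 19623104 to 19632994, plus strand) stood at 3.06, 2.86, 2.46 and 2.75 CPM in shLuc and 6.25, 9.87, 9.17 and 6.02 in shExosc10. The lowest shExosc10 library lay above the highest control, and neither library that stood apart differed from its group in direction. Its log2 fold change was 1.49 (SE 0.30), called by DESeq2 (adjusted p = 0.0334) and not by edgeR, also without the 4 libraries (1.57, adjusted p = 0.0804). In shDis3 it measured 3.05, 2.81, 2.08 and 1.37 CPM, within or below the range of shLuc.

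The other genes with the lowest p on the higher side were not called by edgeR, DESeq2 or edgeR without the 4 libraries. Elmod2, a GTPase-activating protein, measured 10.03, 12.3, 9.26 and 12.4 CPM in shLuc and 16.9, 18.9, 21.95 and 19.8 in shExosc10 (log2 fold change 0.81, SE 0.19). Slc40a1, the iron exporter ferroportin, measured 20.4, 21.4, 15.9 and 15.7 against 26.4, 33.3, 35.6 and 23.7 CPM (0.70, SE 0.19). In both the groups did not overlap. Timm10, a chaperone of mitochondrial protein import, had a log2 fold change of 1.10 (SE 0.29), Sh3bgrl of 0.80 (SE 0.20) and Ginm1 of 0.70 (SE 0.19). Asf1a, a histone chaperone, stood at 0.59 (SE 0.17), Far1, an enzyme of ether lipid synthesis, at 0.61 (SE 0.17), and the paraspeckle protein gene Pspc1 at 0.56 (SE 0.16). Each of these had all 4 shExosc10 libraries above all 4 controls.

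On the lower side, Chp1 and Mid1ip1 followed Exosc10. Chp1, a calcium-binding partner of sodium-proton exchangers (ENSMUSG00000014077.13, chromosome 2, 119547697 to 119587027, plus strand), stood at 45.2, 45.2, 46.6 and 42.0 CPM in shLuc and 22.7, 21.2, 19.9 and 31.8 in shExosc10. The controls were close to each other and lay above every shExosc10 library, of which replicate 4 was the highest. The log2 fold change was -0.91 (SE 0.18), called by DESeq2 (adjusted p = 0.0154) and not by edgeR. In shDis3 it measured 48.4, 35.4, 42.0 and 38.7 CPM.

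Mid1ip1, a regulator of fatty acid synthesis (ENSMUSG00000008035.12, chromosome X, 10715013 to 10719690, plus strand), stood at 37.2, 38.8, 40.7 and 32.98 CPM in shLuc and 22.1, 21.0, 18.4 and 26.9 in shExosc10. The groups did not overlap, and the log2 fold change of -0.76 (SE 0.17) was called by DESeq2 only (adjusted p = 0.0334). In shDis3 it measured 38.7, 30.3, 35.02 and 32.6 CPM.

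Cul7, the scaffold of a ubiquitin ligase, measured 34.4, 33.1, 41.3 and 49.6 CPM in shLuc and 20.6, 15.98, 15.7 and 25.0 in shExosc10 (log2 fold change -1.04, SE 0.24). Ints3, a subunit of the Integrator complex that cleaves nascent small nuclear RNA, measured 76.2, 69.9, 77.6 and 101.1 against 38.6, 44.5, 41.2 and 58.1 CPM (-0.83, SE 0.22). Neither pair of groups overlapped and neither gene was called in any of the fits run. Stk10, a serine/threonine kinase, stood at -1.16 (SE 0.29) and was called by edgeR with no filter on low counts (adjusted p = 0.0314). Ppif, the mitochondrial cyclophilin, stood at -1.0 (SE 0.27) and Mrpl38, a protein of the mitochondrial ribosome, at -0.91 (SE 0.24). Prdm11 (-1.0, SE 0.27), Endod1 (-0.66, SE 0.18), Sema6b (-1.28, SE 0.36) and Smim13 (-1.0, SE 0.25) completed the 12 lowest p-values among genes that averaged 5 CPM or more. Of those 4, only Smim13 had overlapping groups.

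**Figure D3:**
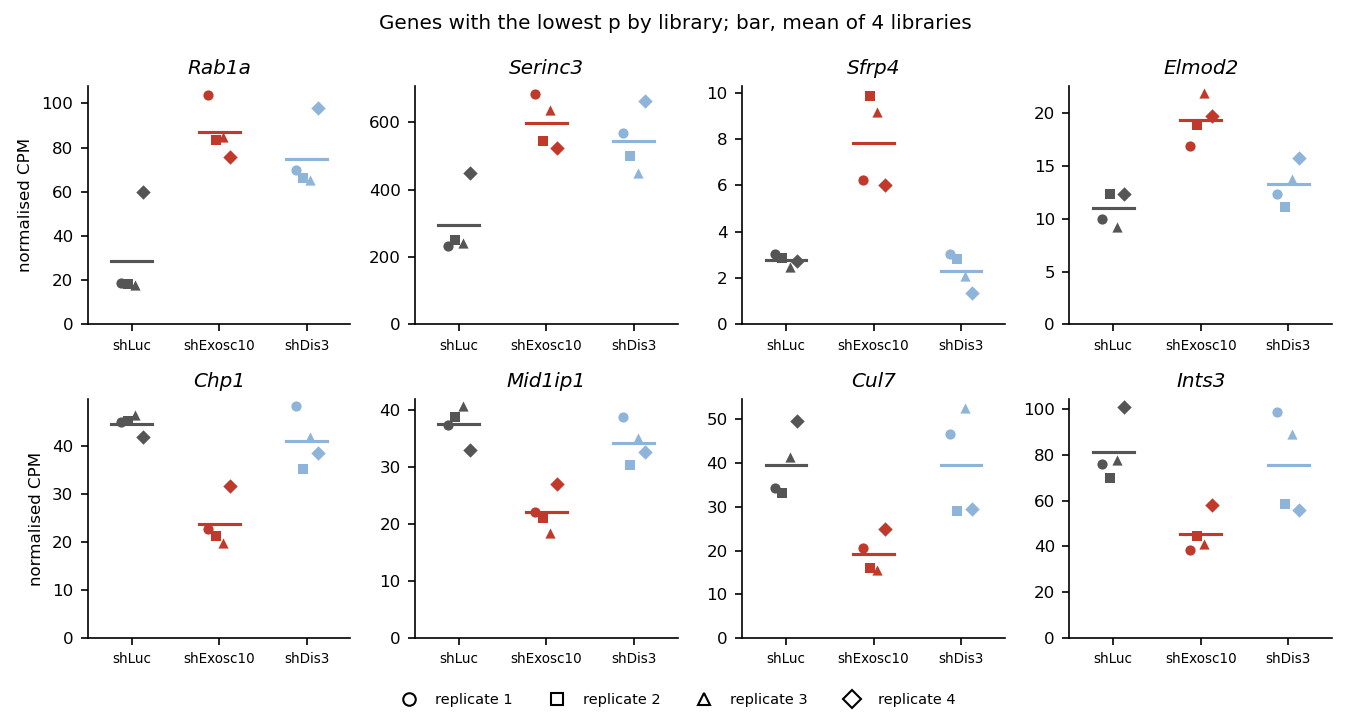
Normalised CPM of 8 genes (y axis from 0) in each library of shLuc, shExosc10 and shDis3, with the marker shape for the replicate and a bar for the mean of 4 libraries. Rab1a and Serinc3 are low in shLuc replicates 1 to 3 and higher in the remaining libraries of all groups, while Sfrp4, Chp1 and Mid1ip1 separate shExosc10 from both other groups.

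Erythroid genes were examined by function. The 5 globins that passed the filter were all positive, with a median log2 fold change of 0.77 (0.67 without the 4 libraries, 0.46 without shLuc replicate 4 and 1.18 without shLuc replicate 2), and none had an unadjusted p under 0.05. Hba-x and Hbb-bh1, embryonic globins, did not pass, with 11 and 42 counts summed over the 8 libraries, and Hbb-bh2 was listed at 0. Hbb-bs, an adult beta globin, measured 94.8, 376.3, 267.1 and 55.3 CPM in shLuc and 168.8, 278.0, 406.4 and 498.5 in shExosc10. Its controls split into a lower pair (replicates 1 and 4) and a higher pair (replicates 2 and 3) that overlapped shExosc10, and the log2 fold change was 0.77 (SE 0.55). Hbb-bt, its near-identical neighbour, measured 36.9, 176.8, 118.9 and 23.6 against 83.5, 144.1, 206.0 and 367.2 CPM (1.17, SE 0.63). Hba-a1 and Hba-a2, which encode the same alpha globin, had log2 fold changes of 0.58 (SE 0.45) and 0.51 (SE 0.47). How reads were divided within these pairs is uncertain. Hbb-y, the embryonic beta-like globin, reached at most 1.59 CPM in the 8 libraries. Its log2 fold change was 1.37 (SE 1.14), -0.11 without shExosc10 replicate 1 alone and 0.81 without the 4 libraries. In bulk RNA, fewer cells of a type and less RNA per cell cannot be told apart.

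Aqp1, Tmcc2 and Cpeb4 rose in the fit without the 4 libraries. Aqp1, the water channel of the red cell membrane, measured 27.98, 46.2, 32.1 and 10.8 CPM in shLuc and 19.1, 123.0, 127.3 and 57.9 in shExosc10. Tmcc2, a transmembrane protein of the red cell list, measured 4.28, 16.8, 20.6 and 9.65 against 7.58, 68.2, 72.4 and 59.1 CPM. Cpeb4, a cytoplasmic polyadenylation factor that erythroblasts induce as they mature, measured 17.9, 29.5, 21.9 and 25.5 against 13.8, 59.7, 59.7 and 51.4 CPM. In all 3 genes, shExosc10 replicates 2 to 4 lay above every control, and shExosc10 replicate 1 lay within or below the controls. With 12 libraries their log2 fold changes were 1.48 (SE 0.56), 2.01 (SE 0.82) and 0.96 (SE 0.46), not called after the filter on low counts. With no filter, edgeR called Aqp1 (adjusted p = 0.000853) and Tmcc2 (adjusted p = 5.76e-06) also in the 12 libraries. DESeq2 on the 12 libraries called none of the 3. In shDis3, Aqp1 measured 34.1, 31.2, 16.9 and 9.14 CPM and Tmcc2 137.5, 156.6, 18.65 and 8.99. Cpeb4 measured 43.2, 42.2, 26.4 and 9.18 CPM there. Without the 4 libraries the log2 fold changes of Aqp1, Tmcc2 and Cpeb4 were 1.53, 2.25 and 1.29. Their adjusted p by edgeR in that fit was 0.0137, 0.00402 and 0.00675 in the same order. Those libraries were left out for their expression profile, in which these lists take part, so these p-values describe the libraries kept.

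**Figure D4:**
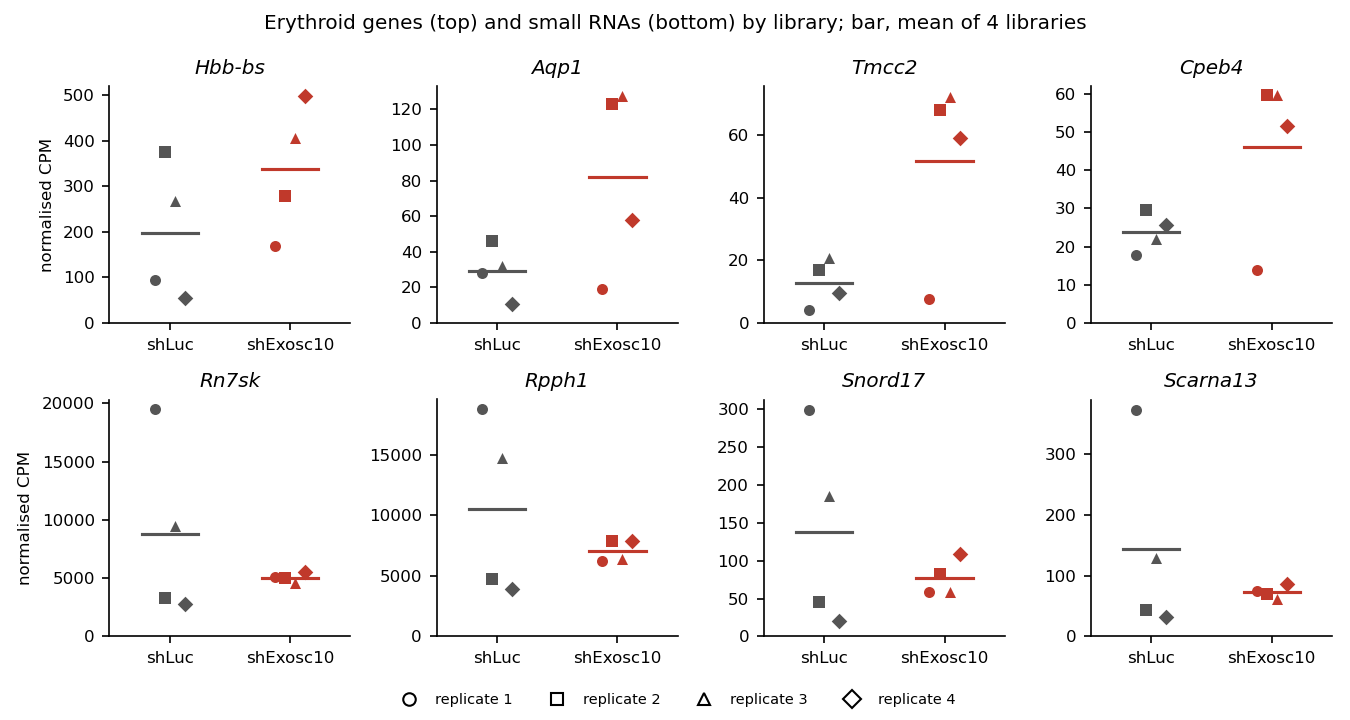
Normalised CPM (y axis from 0) of 4 erythroid genes in the upper row and 4 small RNAs in the lower row, in each shLuc (grey) and shExosc10 (red) library, with a bar for the mean of 4. For Aqp1, Tmcc2 and Cpeb4 shExosc10 replicates 2 to 4 lie above the controls and replicate 1 does not, and for the small RNAs shLuc replicates 1 and 3 lie above all shExosc10 libraries.

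The 41 genes of the red cell membrane and skeleton had a median of 0.13, with 28 positive, both with 12 libraries and without the 4 (median 0.10, 28 positive). Without shLuc replicate 4 alone the median was -0.03. At an unadjusted p under 0.05, 3 were higher and 0 lower, against 0.912% and 1.19% of all genes tested. Car1, carbonic anhydrase 1, measured 18.1, 17.5, 19.6 and 28.1 CPM in shLuc and 58.0, 37.1, 29.8 and 23.3 in shExosc10 (0.83, SE 0.28, unadjusted p = 0.0106). Its groups overlapped through shExosc10 replicate 4 and shLuc replicate 4. Slc4a1, the anion exchanger band 3, measured 4.91, 79.1, 40.5 and 4.59 against 6.86, 62.2, 69.3 and 99.9 CPM, with shLuc replicates 1 and 4 and shExosc10 replicate 1 low (0.88, SE 0.92). Dmtn, dematin, had a log2 fold change of 0.72 (SE 0.53), Cd24a of 0.39 (SE 0.27) and Epb41, protein 4.1, of -0.55 (SE 0.29). The list's score, the mean log2 CPM of its members relative to all 12 libraries, was -0.58 in shExosc10 replicate 1 and -0.68 in shLuc replicate 4, against -0.19 to 0.53 in the other 6.

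Erythroid transcription factors leaned lower with 12 libraries and not without the 4. Of 27, 24 were negative, with a median of -0.26, and 16 were negative with a median of -0.03 without the 4 libraries (-0.11 without shExosc10 replicate 1 alone). At an unadjusted p under 0.05, 4 of them were lower and 0 higher, against 1.19% and 0.912% of all genes tested. Lyl1, a helix-loop-helix factor related to Tal1, measured 56.1, 62.8, 75.9 and 63.5 CPM in shLuc and 48.4, 46.2, 42.0 and 50.3 in shExosc10, without overlap (-0.47, SE 0.17, unadjusted p = 0.0140). E2f4, a cell cycle repressor needed for red cell production, measured 282.9, 285.3, 325.7 and 350.6 against 132.5, 198.8, 173.8 and 274.5 CPM, without overlap (-0.67, SE 0.27). Stat5b, which acts downstream of the erythropoietin receptor, did not overlap either (-0.36, SE 0.17). Gata2, which Gata1 replaces as precursors mature, measured 113.1, 60.8, 104.4 and 222.1 against 55.3, 65.4, 54.3 and 69.9 CPM. Its controls ranged widely and overlapped shExosc10 through shLuc replicate 2 (-1.03, SE 0.36), and without the 4 libraries it was at -0.58. Gata1 (-0.11, SE 0.17), Klf1 (-0.20, SE 0.21) and Tal1 (-0.18, SE 0.23) lay within their errors of 0. The list score was -0.57 in shExosc10 replicate 1 and 0.31 in shLuc replicate 4, against -0.03 to 0.23 in the other 6. Runx1, of earlier progenitors, stood at -0.64 (SE 0.30), and Myb at 0.12 (SE 0.32).

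Heme and iron genes changed little. The 22 heme synthesis genes had a median of 0.03, with 14 positive. Alas2, the first enzyme of erythroid heme synthesis, measured 7.13, 25.2, 19.6 and 3.05 against 6.56, 19.1, 28.99 and 35.9 CPM (0.72, SE 0.63). Its controls split as those of Hbb-bs did. Cpox (-0.11, SE 0.34) and Fech (-0.21, SE 0.31) are later enzymes of the pathway and were not called. The 14 iron genes had a median of 0.07, with Slc40a1 as the only one whose groups did not overlap. Slc25a37, the mitochondrial iron importer mitoferrin, stood at 0.59 (SE 0.29) and Fth1, ferritin heavy chain, at -0.33 (SE 0.26).

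Genes of erythropoietin, Kit and STAT5 signalling leaned lower with 12 libraries (21 of 26 negative, median -0.21) and were nearer to 0 without the 4 (15 negative, median -0.03) or without shExosc10 replicate 1 alone (median -0.02). Epor (-0.14, SE 0.23) and Cish, a STAT5 target (-0.29, SE 0.35), overlapped between groups. Etv5, a target of receptor tyrosine kinase signalling, measured 15.7, 14.6, 18.7 and 23.6 CPM in shLuc and 10.2, 12.1, 11.9 and 15.5 in shExosc10 (-0.55, SE 0.23, unadjusted p = 0.0321). Ccnd3, the cyclin that sets the number of red cell divisions, measured 137.8, 183.0, 178.1 and 168.9 against 128.0, 137.4, 137.5 and 133.3 CPM, with the highest shExosc10 library just under the lowest control (-0.32, SE 0.19). The list score was -0.62 in shExosc10 replicate 1 and -0.05 to 0.18 in the other 7.

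Small structured RNAs are among the known products of the nuclear exosome, and the sequences of 2 that were measured are shown. Many box C/D small nucleolar RNAs guide RNA methylation and carry a C box near the 5′ end and a D box near the 3′ end, while box H/ACA RNAs carry the letters ACA just before the 3′ end. Snord17 (a small nucleolar RNA, chr2:144265979-144266216, minus strand) and Scarna13 (a small RNA of Cajal bodies, chr12:105031075-105031349, minus strand) are shown as GENCODE M21 transcripts on GRCm38, because each was measured in all 8 libraries and represents 1 of these kinds. Capitals mark TGATGA (C box letters) and CTGA (D box letters) in Snord17 and ACA in Scarna13:
Snord17: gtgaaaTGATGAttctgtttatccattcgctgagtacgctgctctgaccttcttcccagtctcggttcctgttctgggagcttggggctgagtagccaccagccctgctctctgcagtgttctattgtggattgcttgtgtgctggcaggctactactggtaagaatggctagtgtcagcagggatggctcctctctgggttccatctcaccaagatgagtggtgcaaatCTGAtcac
Scarna13: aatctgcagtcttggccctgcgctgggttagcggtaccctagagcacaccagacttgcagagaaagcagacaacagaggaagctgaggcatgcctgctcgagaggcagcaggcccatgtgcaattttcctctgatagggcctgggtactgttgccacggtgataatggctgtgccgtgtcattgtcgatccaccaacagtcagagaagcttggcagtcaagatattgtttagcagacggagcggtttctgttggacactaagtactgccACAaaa
Of 1558 annotated transcripts of these 2 classes, read on the transcript strand only, 23.8% held TGATGA in their first 60 bases, 34.8% held CTGA in their last 20 and 19.3% held ACA with 3 bases after it. A match describes letters and not a function.

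The small RNAs that could be measured were not called higher in shExosc10. Of 1558 small nucleolar and Cajal body RNA entries, 1528 were at 0 in all 8 libraries. A count per gene does not separate trimmed from untrimmed forms, so trimming was not measured. Snord17 measured 299.1, 45.4, 184.9 and 20.8 CPM in shLuc and 59.0, 82.9, 58.1 and 109.4 in shExosc10, and Scarna13 measured 372.5, 43.0, 128.1 and 32.7 against 75.1, 68.9, 61.0 and 86.4 CPM. In both, shLuc replicates 1 and 3 lay above and replicates 2 and 4 below the shExosc10 libraries. The log2 fold changes were -0.83 (SE 0.62) and -0.98 (SE 0.59), and that of Scarna13 was 0.11 without shLuc replicate 1. Of 27 small nucleolar and Cajal body RNA entries tested, 25 were negative, with a median of -0.69 (-0.93 without the 4 libraries) and none with an unadjusted p under 0.05. Because 8 of the entries share their counts with an identical copy, they hold 21 distinct profiles. The median was 0.03 without shLuc replicate 1, -0.47 without shLuc replicate 3 and -0.10 by limma on log2(TPM + 1). The list score was 2.16 and 1.61 in shLuc replicates 1 and 3, -0.58 and -1.58 in replicates 2 and 4, and -0.27 to 1.05 in shExosc10.

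Other structured RNAs showed the same split of the controls. Rn7sk, the 7SK RNA that restrains transcription elongation, measured 19506, 3337, 9462 and 2813 CPM in shLuc and 5121, 5014, 4578 and 5494 in shExosc10 (-0.80, SE 0.50). Rpph1, the RNA of RNase P, measured 18840, 4761, 14724 and 3914 against 6196, 7867, 6420 and 7917 CPM (-0.57, SE 0.43). Rn7s2, a signal recognition particle RNA, stood at -0.38 (SE 0.43), and without shLuc replicate 1 at 0.09. For Rn7sk and Rpph1 every shExosc10 library lay between the higher and the lower pair of controls. Of 1383 snRNA entries, 1356 were at 0 in all 8 libraries. The 11 snRNA entries tested, with 8 distinct profiles, were all negative (median -0.89), and again none had an unadjusted p under 0.05. Their median was 0.08 by limma on log2(TPM + 1). The 8 structured small RNAs tested had a median of -0.39, and of 0.18 without shLuc replicate 1. Gm23547 was at -0.94 (SE 0.48) and Gm23971 at -0.50 (SE 0.82).

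Host genes of small nucleolar RNAs and long non-coding RNAs were not called. The 13 host genes had a median of -0.01 with 6 positive (-0.23 and 4 positive without the 4 libraries, 0.25 without shLuc replicate 1). Snhg1 measured 283.5, 133.1, 131.0 and 79.0 CPM in shLuc and 136.3, 119.3, 126.8 and 158.3 in shExosc10 (-0.21, SE 0.31, and 0.25 without shLuc replicate 1), and Snhg20 stood at -0.75 (SE 0.49). Among 17 named nuclear and imprinted long non-coding RNAs, 13 were positive with a median of 0.13 (-0.03 without shLuc replicate 4). Malat1, of nuclear speckles, stood at 0.28 (SE 0.25) and Ftx, of the X-inactivation centre, at 0.52 (SE 0.27).

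Intergenic and antisense RNAs lay slightly above coding genes. The 612 intergenic long non-coding RNAs had a median of 0.17 with 378 positive, and the 451 antisense RNAs a median of 0.18 with 282 positive, against -0.00 and 6938 of 13931 for protein-coding genes. Without shLuc replicate 4 these medians were -0.10 and -0.01, and without shExosc10 replicate 4 they were -0.06 and 0.01. They were 0.59 and 0.49 without shLuc replicate 2, 0.41 and 0.40 without shExosc10 replicate 1, and 0.45 and 0.36 with a replicate block. At an unadjusted p under 0.05, 3 were higher and 1 lower in each of these classes, shares below those of all genes tested. The 139 olfactory receptor genes that passed had a median of 0.26 with 90 positive. The summed level of that family ranged from 8.25 to 312 CPM in shLuc and from 11.8 to 241 in shExosc10. It was 40.2 CPM in shLuc replicate 1. Genes with a count numbered 20299 and 17981 in shLuc replicates 1 and 4 and 18628 in shExosc10 replicate 1. The others of the 8 libraries held 28296 to 33019. The intergenic list score was -0.48, -1.06 and -1.03 in the same order, and 0.40 to 0.97 in the others. The part of that family, and of the number of genes detected, in the medians of the non-coding classes was not tested. The strand setting of the counts is not given in the sources used here, so antisense genes are uncertain. Processed pseudogenes (804) had a median of 0.11 with 12 libraries and -0.12 without the 4.

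Clustered histone genes, whose mRNA lacks a poly(A) tail, had a median of 0.01 over 66 genes and of -0.25 without the 4 libraries, where 8 were positive. Hist2h2be measured 3.06, 4.84, 2.46 and 1.41 CPM in shLuc and 4.96, 6.43, 6.87 and 6.02 in shExosc10, without overlap (1.04, SE 0.46, unadjusted p = 0.0373). Hist2h2aa2 fell in the fit without the 4 libraries (-2.07, adjusted p = 0.00675 by edgeR) and was at 0.51 (SE 0.89) with all 12. It measured 68.5, 62.5, 110.1 and 138.8 CPM in shLuc and 482.5, 17.5, 8.41 and 32.7 in shExosc10. Its near-identical copy Hist2h2aa1 held most of the reads, and their sum was 1496, 1540, 2736 and 1175 CPM in shLuc and 1961, 2099, 1638 and 1381 in shExosc10. The sums overlapped, and the value of each copy alone is uncertain.

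Medians of the lists of other blood lineages varied with the libraries kept. The 26 megakaryocyte and platelet genes tested had a median of 0.02 with 13 positive, and of 0.37 with 20 positive without the 4 libraries. Their median was 0.72 without shLuc replicate 4 alone and -0.29 without shExosc10 replicate 1 alone. Ppbp, a platelet chemokine, measured 0.739, 1.09, 1.14 and 1.71 CPM in shLuc and 4.96, 3.80, 2.80 and 1.76 in shExosc10, without overlap (1.5, SE 0.38, unadjusted p = 0.00147). It was not called in any of the 3 tests. Ms4a3, of granulocyte-monocyte progenitors, measured 10.5, 10.8, 12.7 and 32.01 against 59.8, 25.0, 27.9 and 20.4 CPM (1.01, SE 0.41). Without the 4 libraries it was at 1.09 (adjusted p = 0.0804 by edgeR). The 22 granulocyte genes had a median of -0.17 and, without shLuc replicate 4, of 0.39. The 20 macrophage genes moved from -0.14 to 0.52 and the 29 stem and early progenitor genes from -0.14 to 0.66 when that library was left out. The 13 mast cell and basophil genes moved from -0.17 to -0.88 without shExosc10 replicate 1. The 10 lymphoid genes (-0.05) and 6 hepatocyte genes (-0.33) that passed the filter came from lists that summed to at most 12.4 and 35.95 CPM in the 8 libraries. The 13 endothelial and stromal genes (-0.05) came from a list that summed to 374.2 CPM in shLuc replicate 4, 348.7 in shExosc10 replicate 1 and 148.7 to 273.8 in the other 6.

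**Figure D5:**
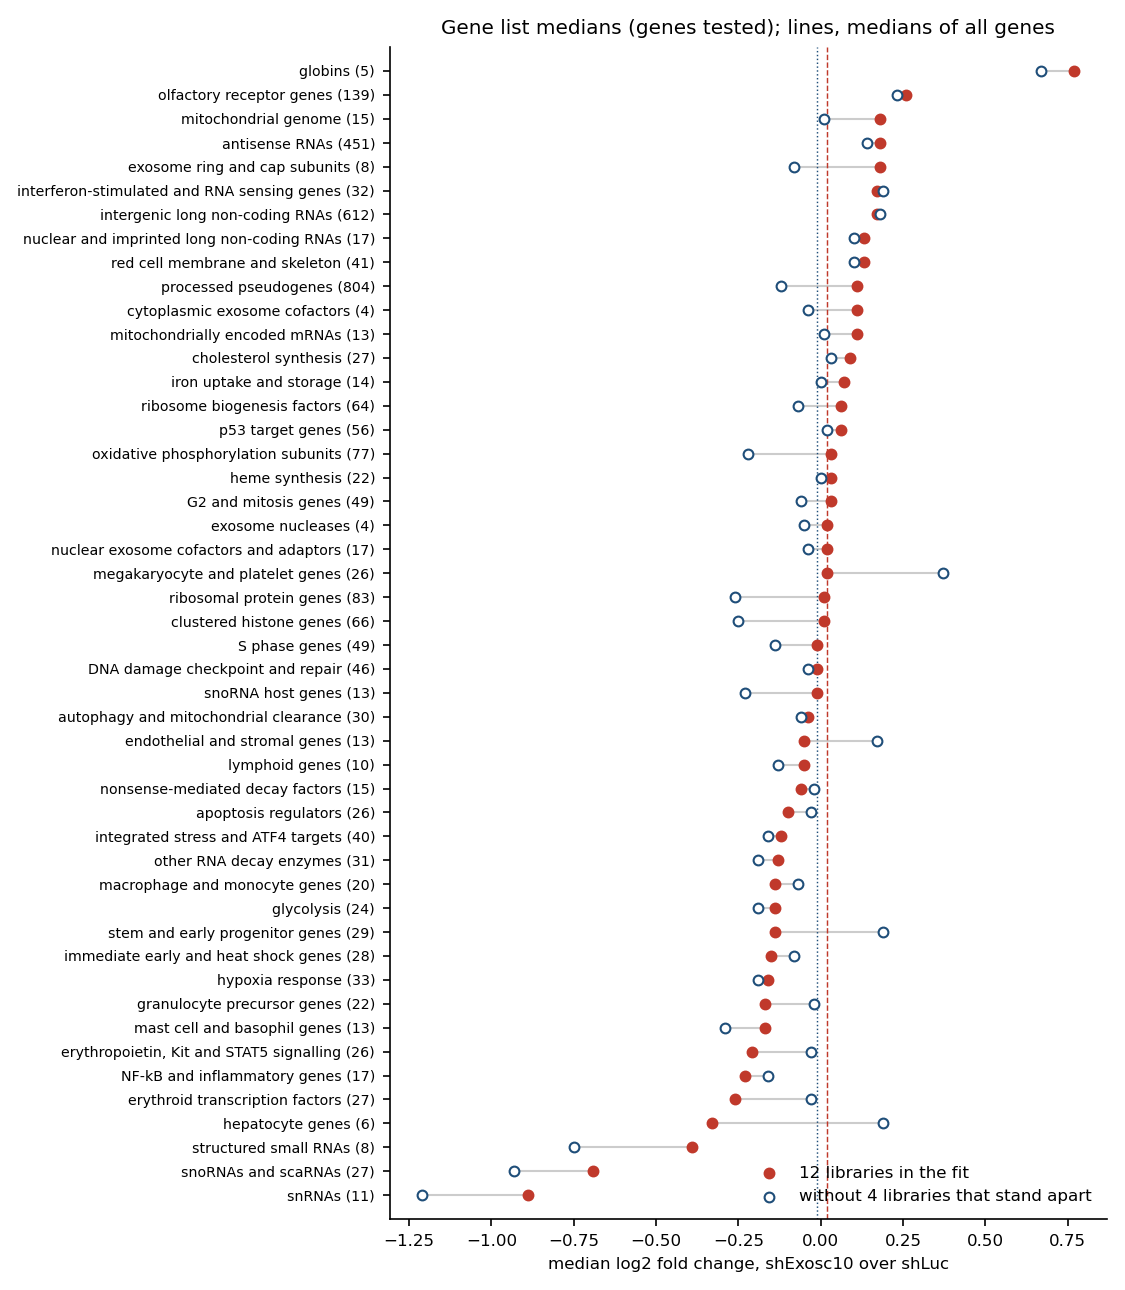
Median log2 fold change of shExosc10 over shLuc (x axis) for 48 gene lists, with the number of genes tested in brackets, in the fit with 12 libraries (filled) and in the fit without 4 (open); the vertical lines are the medians of all genes, 0.02 and -0.01. The globins lie highest and the snRNAs, snoRNAs and structured small RNAs lowest in both fits, while lists such as the ribosomal protein genes and the exosome ring genes lie on different sides of 0.

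Stress and damage lists held no called gene. The 56 p53 targets had a median of 0.06 with 34 positive. Cdkn1a, the cell cycle inhibitor p21, measured 45.7, 54.2, 64.5 and 18.7 CPM in shLuc and 22.1, 80.7, 71.0 and 48.8 in shExosc10 (0.28, SE 0.44). Mdm2 (0.21, SE 0.23) and Ccng1 (0.22, SE 0.29) overlapped between groups, and Ak1 had the lowest p of the list (1.12, SE 0.44, unadjusted p = 0.0227). The p53 list score was -0.71 in shLuc replicate 4 and -0.52 in shExosc10 replicate 1, against -0.14 to 0.24 in the other 6. Of 46 genes of DNA damage checkpoints and repair, 20 were positive with a median of -0.01. Xrcc1, a scaffold of single-strand break repair, measured 54.7, 49.5, 63.0 and 47.6 against 29.1, 46.0, 38.2 and 35.2 CPM, without overlap (-0.53, SE 0.21). Xrcc3, of homologous recombination, did not overlap either (-0.50, SE 0.20). The 26 apoptosis regulators had a median of -0.10.

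The 40 targets of ATF4 and the integrated stress response had a median of -0.12 with 12 positive, including Shmt2 of mitochondrial serine metabolism (-0.40, SE 0.20) and Cebpb (-0.42, SE 0.22). The 28 immediate early and heat shock genes had a median of -0.15, with Klf2 at -1.28 (SE 0.49) and Klf4 at -1.67 (SE 0.72), with at most 3.29 and 3.32 CPM in any of the 8 libraries. Inflammatory genes of the NF-kB list had a median of -0.23 with 2 of 17 positive, and Nfkbiz stood at -0.81 (SE 0.33). The 32 interferon-stimulated and RNA sensing genes had a median of 0.17 with 23 positive. That median was 0.06 without shLuc replicate 4, 0.07 by limma on log2(TPM + 1) and 0.32 without shLuc replicate 2. The list score was -0.83 and -0.61 in shLuc replicates 1 and 4 and -0.66 in shExosc10 replicate 1. It was 0.21 to 0.45 in the others of the 8 libraries. Cgas, the DNA sensor, was at -0.54 (SE 0.24, unadjusted p = 0.0399 by edgeR). Among 30 autophagy genes (median -0.04), Atg5 measured 36.5, 24.7, 26.5 and 30.9 CPM in shLuc and 51.4, 38.8, 41.8 and 40.1 in shExosc10, without overlap (0.54, SE 0.20). None of these genes was called.

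Growth and metabolism lists had medians of -0.16 to 0.11 with 12 libraries. The 64 ribosome biogenesis factors had a median of 0.06 (-0.07 without the 4 libraries), the 49 S phase genes of -0.01 (-0.14) and the 49 genes of G2 and mitosis of 0.03 (-0.06). Prc1, which organises the central spindle, measured 125.7, 139.5, 107.7 and 102.7 CPM in shLuc and 159.2, 154.0, 160.9 and 143.3 in shExosc10, without overlap (0.38, SE 0.18). Ccnb1, the mitotic cyclin, did not overlap either (0.33, SE 0.21). Of the 49 G2 and mitosis genes, 2 lay higher without overlap and 1 lower, against 1.02% and 1.46% of all genes tested. Of the 49 S phase genes, 0 lay higher without overlap and 3 lower. Without the 4 libraries, 16 of the G2 and mitosis genes and 7 of the S phase genes were positive. Glycolysis genes had a median of -0.14 with 5 of 24 positive, and of -0.19 with 5 positive without the 4 libraries. That median was -0.04 without shExosc10 replicate 1, -0.00 without shLuc replicate 3 and -0.26 without shLuc replicate 4. Gapdh stood at -0.18 (SE 0.19) and Eno1 at -0.24 (SE 0.22). Hypoxia response genes had a median of -0.16 with 8 of 33 positive, which was 0.04 without shExosc10 replicate 1 and 0.01 without shLuc replicate 3. The 27 cholesterol synthesis genes had a median of 0.09 with 20 positive. The 83 ribosomal protein genes had a median of 0.01, with 44 positive. Without the 4 libraries the median was -0.26 and 1 was positive, Rplp2 being at -0.26 (SE 0.20) and -0.44 in the 2 fits. The 77 nuclear oxidative phosphorylation genes moved likewise from 0.03 to -0.22 (Atp5d at -0.28 and -0.40). The 13 mitochondrially encoded mRNAs had a median of 0.11, with mt-Co1 at 0.39 (SE 0.20).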

How the data were processed

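RNA of sorted cells was sequenced in 12 libraries, of which 8 enter this comparison. The submitters' processing notes list STAR (2.5.3a), RSEM (1.3.0) and the build GRCm38 (mm10). Annotation release, strand setting and read filters: not given in the sources used here. For each gene the authors deposited, per the file headers, an RSEM expected count, which divides ambiguous reads between genes (4.55% of values were not whole), and a TPM value. Symbols and coordinates came from GENCODE M21, which matched 55144 of 55385 identifiers without their version.

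The expected counts were rounded and tested with edgeR 4.0.16 (R 4.3.3; quasi-likelihood F-test, TMM factors, default filter on low counts, the 12 libraries fitted together by group), with Benjamini-Hochberg adjustment over 17650 genes. The biological coefficient of variation was 60%. Each SE of a log2 fold change was the absolute change divided by the square root of its F statistic. It rests on all libraries of the fit, and not on the 2 compared groups alone. Normalised CPM used TMM-scaled library sizes, and list scores used log2 CPM with a prior count of 2. Alternatives were DESeq2 1.42.0 on the rounded counts, limma 3.58.1 on log2(TPM + 1) for genes with a mean TPM of at least 1, the 8 libraries alone, DESeq2's size factors, no filter, a replicate block, and leaving out libraries.

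Members and gene lists were chosen with earlier results of these data known. Genes were named by rule: exosome genes, called genes, the 12 lowest p-values in each direction above a mean of 5 CPM, the 2 highest and the 2 of lowest p in each of 49 lists, members of 10 erythroid, small RNA and p53 lists, and cell type markers. Values of near-identical gene copies are uncertain. No 2 of the 8 libraries agreed within sampling noise (lowest chi-square per degree of freedom 16, between shExosc10 replicates 2 and 3).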

Additional observations from a re-analysis of the deposited data

Results flagged for a closer look

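Within a group of 4, a sample was singled out where its gap to the nearest other sample as a share of the group's range on the log2 scale exceeded Dixon's critical value, which chance reaches in about 1 of 20 groups. Of 350 groups of values examined, 25 held such a sample. These groups come from the same 8 libraries and are not independent, so the total cannot be judged against that rate. Of the 25, 15 lay in shExosc10 replicate 1 and 6 in shLuc replicate 4, the 2 libraries that stood apart, and 4 in others.

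In shExosc10 replicate 1, values lay far from the other 3 libraries of its group for exosome genes (Exosc2 81.54 CPM and Exosc4 35.31 CPM, both high) and for erythroid genes, which were low: Tmcc2 7.578, Cpeb4 13.75, Cpox 227.8, Hemgn 19.06, Dmtn 6.062, Kit 305.4 and Epor 31.83 CPM. Itga2b of megakaryocytes (87.26 CPM) and Ms4a2 of mast cells (26.98 CPM) were high there. Its list scores stood out for other RNA decay enzymes (0.10), S phase genes (0.21), red cell membrane and skeleton genes (-0.58) and erythropoietin, Kit and STAT5 signalling (-0.62).

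In shLuc replicate 4, Rab1a (59.8 CPM), Serinc3 (449.6 CPM) and Dis3l (31.31 CPM) were high and Mdm2 (68.04 CPM) was low against the other controls. Its scores stood out for p53 targets (-0.71) and ribosome biogenesis factors (0.21).

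In other libraries, Exosc9 was high in shLuc replicate 1 (111.1 CPM), Klf2 was low in shLuc replicate 2 (0.8517 CPM), and in shLuc replicate 3 Mki67 was low (1680 CPM) and Atp5d high (221.3 CPM).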

How the results depend on the processing

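The count of called genes (1 in the 12 libraries) was 6 with DESeq2, 0 with limma on log2(TPM + 1), 10 with no filter on low counts (Tmcc2, Rab1a, Aqp1, Slfn14 and F630028O10Rik higher, Exosc10, Aqp3, Stk10, Plagl2 and Spns2 lower), and 0 to 7 with libraries left out, where 0 came without shExosc10 replicate 2 or 3 and 2 without shLuc replicate 4. The names outside the rule were chosen after their values were seen. Exosc10 stayed negative in all of these fits, at -1.69 by limma, where it was not called, and at -1.97 to -1.74 with libraries left out, not called without shExosc10 replicate 2 or 3. The labels do not say whether replicate numbers pair the libraries. Same-numbered shLuc and shExosc10 libraries deviated from their group means together at r = 0.233, 0.373, 0.238 and -0.47. The libraries that stood apart carry different numbers and enter these deviations, so the values cannot decide whether the libraries are paired. With a replicate block the count was 1, and 0 with a replicate block on the 8 libraries alone, an alternative chosen after seeing the data, where Exosc10 was at -1.91 (adjusted p = 0.178 by edgeR). By limma, Dis3l was at 0.20, Gm23971 at 0.80 and Hist2h2aa2 at -1.13, and the medians of exosome nucleases, other RNA decay enzymes and iron genes at 0.19, -0.01 and 0.20. Hist2h2aa2 was at -1.14 with the replicate block and at -1.53 with it on the 8 libraries, where Gm23971 was at 0.41. Hepatocyte genes had a median of 1.03 by DESeq2 and with no filter, where more genes of low count enter. With libraries left out, log2 fold changes that crossed 0 were Dis3 -0.05 to 0.24, Dis3l -0.25 to 0.05, Exosc1 -0.02 to 0.33, Exosc3 -0.14 to 0.19, Exosc4 -0.16 to 0.29, Exosc8 -0.01 to 0.38, Hist2h2aa2 -2.28 to 0.93, Hbb-y -0.11 to 2.35, Gata1 -0.19 to 0.02, Myb -0.11 to 0.51, Fech -0.45 to 0.01, Cpox -0.27 to 0.16, Epor -0.26 to 0.05, Rn7s2 -0.68 to 0.09, Scarna13 -1.37 to 0.11, Gm23971 -0.93 to 0.00, Snhg1 -0.47 to 0.25 and Ccng1 -0.04 to 0.42. List medians that moved by more than the spread between libraries ran from -0.08 to 0.27 for exosome ring and cap genes, -0.04 to 0.11 for nuclear and -0.04 to 0.22 for cytoplasmic cofactors, -0.19 to -0.01 for other decay enzymes, -0.13 to 0.04 for nonsense-mediated decay, -0.32 to -0.01 for erythroid transcription factors, -0.52 to 0.66 for stem, -0.35 to 0.39 for granulocyte, -0.58 to 0.52 for macrophage, -0.88 to 0.28 for mast cell and -0.51 to 0.33 for hepatocyte genes, -0.14 to 0.05 for S phase and -0.06 to 0.08 for G2 and mitosis. Apart from what the design of an alternative shows, the cause of each shift was not tested.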
